A study of Mus musculus with 9 samples.

Results

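The genes described here are the keratin-associated protein genes of mouse chromosome 16. Members were all rows of the deposited count table with a symbol of the form Krtap plus a number, placed on chromosome 16, leaving out symbols that end in -ps. The rule found 25 genes among 54456, and 24 of them had enough counts to be tested, the exception being Krtap13. In the mm39 build the members lie between chr16:88407593-89368071, a stretch of 960.479 kb. The table holds 33 more Krtap genes on other chromosomes. The study sequenced polyA RNA from mouse skin lesions labelled AA-like, in work on immune-mediated alopecia, hair loss caused by immune attack on the follicle. Of 9 libraries, 3 are from lesions left untreated, 3 from lesions given empty microneedles (MN), and 3 from lesions given microneedles that carried the cytokine IL-2 and the chemokine CCL22. A microneedle device is a patch of short needles that pierces the skin surface. These groups are called untreated, empty device and loaded device below. The strain, sex and age of the mice, how the lesions were induced, and when skin was taken were not given in the sources used here. The labels do not say whether a group's 3 libraries are 3 animals, so each p-value refers to library spread alone, possibly of technical origin.

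Keratin-associated proteins fill the space between keratin filaments in the hair shaft and cross-link them. They are made late, in the cortex and cuticle cells of the growing shaft just above the hair bulb, after the hair keratins have been switched on. Subfamilies rich in cysteine are called high sulfur and bond to keratins through disulfide bridges. Other subfamilies are rich in glycine and tyrosine. Hair grows in cycles, so RNA of these genes is high in skin with growing follicles and low in skin with resting ones. From the subfamily number, 17 members (subfamilies 6, 7, 8, 16, 19, 20, 21 and 22) are of the high glycine-tyrosine class and 8 (subfamilies 11, 13, 14, 15, 24, 26 and 27) of the high-sulfur class. The split into classes covers the chromosome 16 members alone. It was made after the values had been seen, and no difference between the classes was tested.

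The stretches before the gene starts show what the genes share in sequence. RefSeq gave the promoter of 23 of the 25 members in the build GRCm38.p6, whose coordinates differ from those of mm39. The letters TATAA, the core of a TATA box, stood on the gene's own strand within the 100 bases before the start in 23 of 23 members, against 7.48% of 32851 mouse promoters. This motif was chosen after the sequences had been seen. Below are the 100 bases before the start, read 5′ to 3′ on the gene's strand, with TATAA in capitals. They are shown for 4 genes that differed in level and response, with Krtap24-1 at chr16:88612280-88612379, Krtap11-1 at chr16:89571184-89571283, Krtap8-1 at chr16:89487953-89488052 and Krtap16-3 at chr16:88962874-88962973, all on the minus strand.
Krtap24-1: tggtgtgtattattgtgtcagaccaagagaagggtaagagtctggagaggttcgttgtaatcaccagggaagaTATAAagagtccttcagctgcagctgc
Krtap11-1: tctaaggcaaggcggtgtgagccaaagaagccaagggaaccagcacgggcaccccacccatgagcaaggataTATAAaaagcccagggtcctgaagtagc
Krtap8-1: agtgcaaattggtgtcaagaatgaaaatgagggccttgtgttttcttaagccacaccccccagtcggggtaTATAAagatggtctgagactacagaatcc
Krtap16-3: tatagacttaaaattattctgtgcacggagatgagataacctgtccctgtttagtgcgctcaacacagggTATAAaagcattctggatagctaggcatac
In these 4 genes the first base of TATAA lay 27, 28, 29 and 30 bases before the start, in the order shown. They do not show the full spread. Over the 23 members the first base of the nearest TATAA lay 27 to 71 bases before the annotated start.

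In subfamily 19 the pair Krtap19-1 and Krtap19-2 stood apart by sequence. Aligned with gaps allowed, 92.4% of the 250 bases before their starts were identical, against 66.4% for the next most alike pair of members. The median over all 253 pairs was 53.6%. Unrelated promoters were not aligned, so the median does not measure shared sequence. The 100 bases nearest the start are printed to show the likeness of Krtap19-1 and Krtap19-2, with TATAA in capitals. The stretches are chr16:88869411-88869510 for Krtap19-1 and chr16:88874270-88874369 for Krtap19-2, both in GRCm38.p6 on the minus strand. Krtap6-1, at chr16:89031599-89031698 on the plus strand, is added as a member of another subfamily whose TATAA also lies far from the annotated start.
Krtap19-1: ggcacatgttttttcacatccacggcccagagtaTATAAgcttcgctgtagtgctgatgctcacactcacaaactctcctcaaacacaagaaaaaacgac
Krtap19-2: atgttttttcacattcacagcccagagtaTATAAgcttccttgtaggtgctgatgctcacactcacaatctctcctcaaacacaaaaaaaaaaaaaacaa
Krtap6-1: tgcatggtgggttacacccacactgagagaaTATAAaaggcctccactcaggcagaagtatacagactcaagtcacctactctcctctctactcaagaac
The first base of TATAA lay 66, 71 and 69 bases before the annotated start in Krtap19-1, Krtap19-2 and Krtap6-1. Binding motifs of 2 factor families known from the hair follicle were also searched, on both strands of the 250 bases. The LEF/TCF strings CTTTGAA or CTTTGAT, bound by partners of the Wnt signal, were found in 7 of 23 members (30.4%) and in 7.48% of all promoters. Strings for Hoxc13, a homeobox factor required for hair formation, were TTTATNAA, TTTATNAG, TTTATNGA, TTTATNGG, TTAATNAA, TTAATNAG, TTAATNGA and TTAATNGG. They were found in 11 of 23 members (47.8%) and in 17.2% of all promoters. With A at N, the strings that begin with TTTAT contain TATAA on at least 1 strand. Within the 250 bases TATAA stood on either strand in 22.8% of all promoters, which were not matched to the members for it. A match is a string of letters and shows no binding.

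Each library held 85962714 to 96740589 counts. Levels are given as counts scaled to library size (CPM) after scaling by edgeR's TMM factors, and compared between genes as CPM per kilobase of the annotated gene span. A gene was called changed when its adjusted p in edgeR's quasi-likelihood test, with Benjamini-Hochberg adjustment over all 26081 tested genes, was under 0.05. The 25 members took 0.653% ± 0.0182 (SD, n = 3) of all counts in untreated lesions, 0.407% ± 0.0238 under the empty device and 0.763% ± 0.0209 under the loaded one. In bulk skin, fewer shaft-forming cells and less RNA per cell cannot be told apart.

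A few members made most of this RNA. Krtap7-1, a glycine-tyrosine protein of the shaft, took 28.8% of the members' summed level over the 9 libraries. Together with Krtap8-1, Krtap15, Krtap11-1 and Krtap14 it took 73.9%. Per length, Krtap7-1 was also the highest, at 2824 CPM per kilobase, followed by Krtap8-1 at 1369. On annotated spans Krtap22-2 (654) and Krtap11-1 (636) came next as means over the 9 libraries, but their order turned with the group: untreated, Krtap11-1 stood at 781 and Krtap22-2 at 692 CPM per kilobase, and under the empty device at 362 and 464. The lowest tested members were Krtap27-1 at 14.6, Krtap20-2 at 17.2, Krtap19-2 at 24.1 and Krtap24-1 at 28.5 CPM per kilobase. Krtap14 and Krtap15 came to 75.3 and 78.1 CPM per kilobase on their long annotated spans. Per kilobase of their spliced transcripts in GENCODE M21, the values were 658 and 884. Krtap14 (minus strand) and Krtap15 (plus strand) overlap by 5931 bases, and both also overlap the gene 4930553J12Rik. Whether counting used strand was not given in the sources used here, so reads of Krtap14 and Krtap15 may have been shared or discarded.

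**Figure D1:**
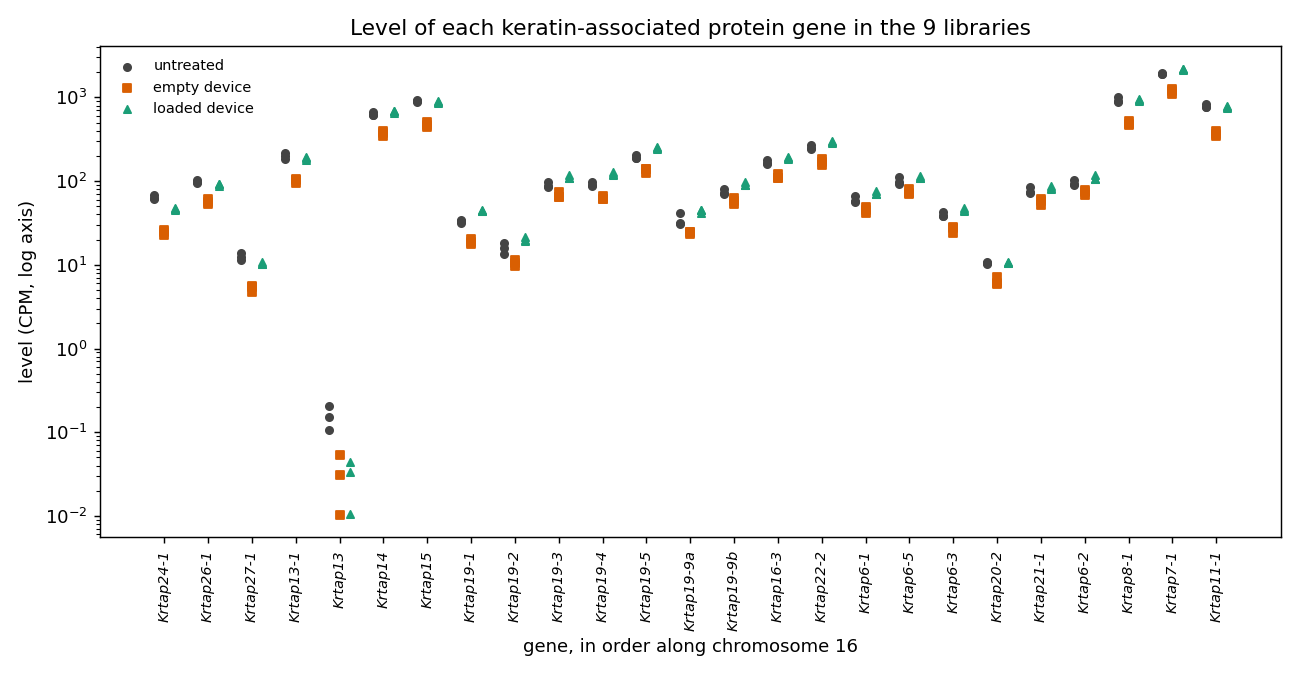
Level of each member in each of the 9 libraries, in CPM on a log axis, with members in their order along chromosome 16 and 1 marker shape and colour per group. The empty-device markers lie under the untreated ones at every member, and the loaded-device markers lie above the untreated ones or overlap them, except at Krtap24-1, Krtap26-1, Krtap27-1 and the barely detected Krtap13.

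With the empty device every tested member was lower than in untreated lesions. All 24 fell and 0 rose, where 28.1% of all tested genes fell and 20.2% rose. The log2 fold changes ran from -1.38 to -0.36 with a median of -0.58, beside -0.016 over all tested genes. In the 17 high glycine-tyrosine genes the median was -0.53 (-0.94 to -0.36) and in the 7 tested high-sulfur genes it was -0.97 (-1.38 to -0.76).

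With the loaded device against untreated lesions the calls were mixed. Of 24 tested members 13 rose, 3 fell and 8 did not pass the test, where 19% of all tested genes rose and 23.3% fell. The median log2 fold change was 0.16 (-0.44 to 0.43), beside -0.014 over all tested genes. All 13 that rose were high glycine-tyrosine genes, with a class median of 0.22, and all 3 that fell, Krtap24-1, Krtap26-1 and Krtap27-1, were high-sulfur genes, with a class median of -0.09. These shifts are small and depend on scaling. With library size as the only scaling, the median of all genes moved from -0.014 to 0.118, 19 members rose and just 1, Krtap24-1, fell. The split by class depends on the setting too: the high-sulfur gene Krtap14, at 0.095 ± 0.042 (edgeR adjusted p = 0.0711), passed the test as higher in 9 alternatives, such as DESeq2 size factors (0.11, edgeR adjusted p = 0.0469) and upper-quartile factors (0.12, edgeR adjusted p = 0.0154).

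Between the 2 devices the members all moved one way. All 24 were higher with the loaded device and 0 were lower, where 22.9% of all tested genes were higher and 18.5% were lower. The median log2 fold change was 0.86 (0.56 to 1.23), beside 0.015 over all tested genes. The 3 comparisons share libraries, so these counts are not independent of each other.

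**Figure D2:**
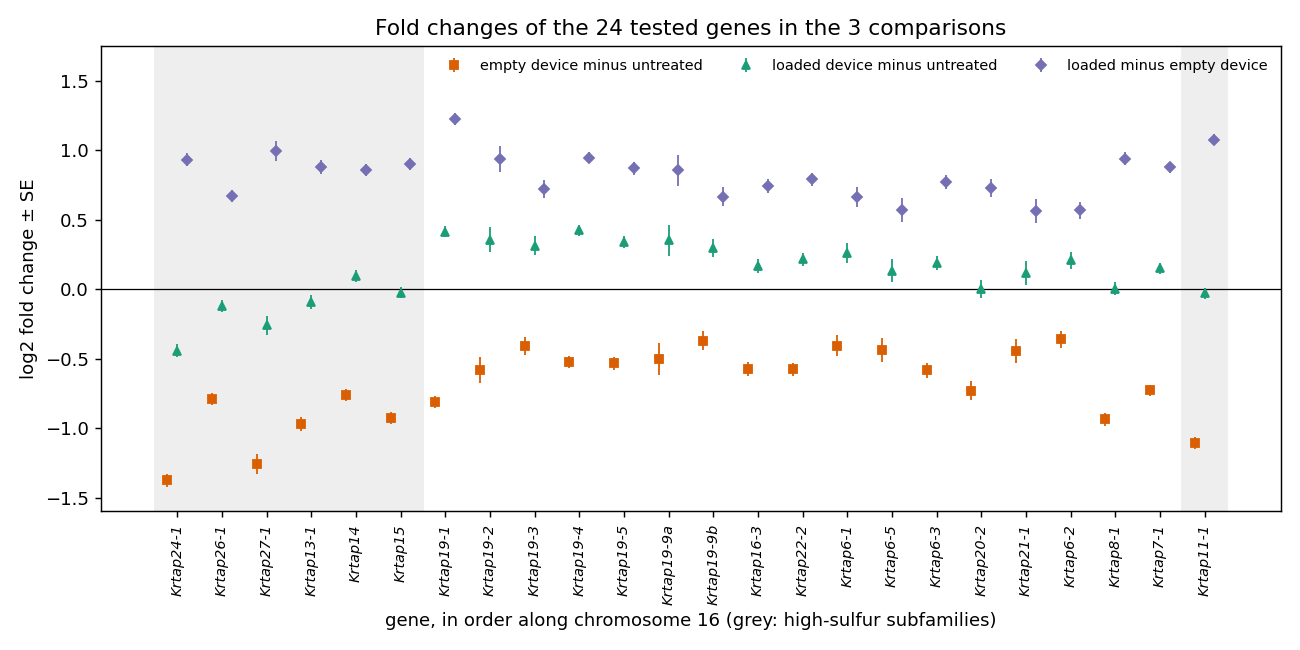
Log2 fold change of each tested member with its standard error (bars) in the 3 comparisons, in order along the chromosome, from the edgeR fit. Empty device against untreated lies below 0 for all 24 members, loaded against empty device lies above 0 for all 24, and loaded device against untreated runs from -0.44 at Krtap24-1 to 0.43 at Krtap19-4.

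Krtap7-1 is the only member of its subfamily and lies near the far end of the cluster (chr16:89304591-89305211, mm39, minus strand). Untreated libraries held 1980, 1907 and 1926 CPM, empty-device libraries 1180, 1244 and 1089 CPM, and loaded-device libraries 2158, 2205 and 2097 CPM. The groups did not overlap in any pair. Krtap7-1 fell by 0.73 ± 0.041 (SE) on the log2 scale with the empty device (edgeR adjusted p = 1.73e-14) and rose by 0.15 ± 0.040 with the loaded device (edgeR adjusted p = 0.00287). Its neighbour Krtap8-1 is another glycine-tyrosine gene, and the difference in response between the 2 genes was not tested. Untreated libraries held 1002, 906 and 893 CPM, empty-device libraries 480, 523 and 462 CPM, and loaded-device libraries 941, 958 and 910 CPM. Loaded-device values of Krtap8-1 lay inside the untreated range, and the log2 difference was 0.0043 ± 0.046 (edgeR adjusted p = 0.955). Against the empty device it was 0.94 ± 0.047 higher on the log2 scale (edgeR adjusted p = 1.15e-12), having been 0.94 lower with the empty device than untreated.

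Subfamily 19 is the largest on the chromosome, with 7 genes side by side on the minus strand. It encodes small glycine-tyrosine proteins, except that GENCODE M21 lists Krtap19-9a as a processed pseudogene. All 7 rose with the loaded device against untreated lesions, by 0.30 to 0.43 on the log2 scale, where 19% of all tested genes rose. All 7 fell with the empty device, with a median of -0.52 (-0.81 to -0.37), where 28.1% of all tested genes fell. Krtap19-5, the highest per length at 393 CPM per kilobase, held 207, 189 and 190 CPM in untreated, 140, 141 and 124 CPM in empty-device and 247, 254 and 241 CPM in loaded-device libraries. Every loaded library lay above every untreated one, and the rise was 0.34 ± 0.046 on the log2 scale (edgeR adjusted p = 6.46e-06). Krtap19-4 had the largest rise of all tested members, 0.43 ± 0.041 on the log2 scale (edgeR adjusted p = 1.31e-08). Its libraries held 96.4, 89.8 and 86.3 CPM untreated, 61.9, 66.9 and 60.9 CPM under the empty device, and 120, 127 and 119 CPM under the loaded device.

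Krtap19-1 had the widest gap of any tested member between the 2 devices. Its levels were 34.5, 33.2 and 31.8 CPM untreated, 17.7, 20.1 and 18.9 CPM under the empty device and 43.9, 45 and 43.9 CPM under the loaded device. None of the groups overlapped, and the loaded-device mean was 2.34-fold the empty-device one by the fit, a log2 difference of 1.23 ± 0.043 (edgeR adjusted p = 2.43e-18). Krtap19-2, the gene with the near-identical upstream stretch printed above, was lower throughout, at 18.1, 15.7 and 13.6 CPM untreated, 9.78, 11.3 and 10.6 CPM under the empty device and 19.2, 21.6 and 19.9 CPM under the loaded device. Its log2 difference between the devices was 0.94 ± 0.093 (edgeR adjusted p = 5.40e-06). Krtap19-1 shared 16.8% of its 50-base words with transcripts of other genes, chiefly Krtap19-2, and Krtap19-2 shared 15.2%, so reads could have been assigned to either of them or discarded. The difference in response between these genes was not tested. Krtap19-3, with means of 90 ± 5.96 (SD, n = 3), 67.8 ± 5.25 and 112 ± 6.52 CPM in the untreated, empty and loaded groups, changed in the same directions. Krtap19-9b had the smallest fall of the subfamily with the empty device, -0.37 ± 0.068 on the log2 scale (edgeR adjusted p = 0.00114), from 81, 70.7 and 72.8 CPM untreated to 57.7, 62.8 and 53.1 CPM. With the loaded device it reached 90, 96.4 and 89.4 CPM, a rise of 0.30 ± 0.067 (edgeR adjusted p = 0.00499). Krtap19-9a, which GENCODE M21 lists as a processed pseudogene, still held 27699 counts over the 9 libraries. Its rise with the loaded device, 0.35 ± 0.11 on the log2 scale (edgeR adjusted p = 0.0433), was the least certain of the 13, since untreated library 1 held 41.1 CPM beside 31.3 and 30.7 CPM in the others. It lost its call in 9 of the alternatives, among them leaving out any library except untreated library 1. Loaded libraries held 44.7, 45.6 and 41.4 CPM, all above the untreated ones.

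Subfamily 6 has 4 members, interspersed with the single members of subfamilies 20 and 21. Its log2 changes with the empty device ran from -0.58 to -0.36. Krtap6-2 held 102, 89.6 and 92.7 CPM untreated, 73.8, 78.8 and 69 CPM under the empty device and 107, 117 and 105 CPM under the loaded device. That is a fall of 0.36 ± 0.062 with the empty device (edgeR adjusted p = 5.36e-04), the smallest of the 24, and a rise of 0.21 ± 0.062 with the loaded device (edgeR adjusted p = 0.0174). The rise was lost without untreated library 2 or untreated library 3. Krtap6-1 held 66.4, 57.5 and 56.6 CPM untreated, 45.5, 48.9 and 41.7 CPM under the empty device and 70.8, 75.5 and 69.7 CPM under the loaded device. Its rise of 0.26 ± 0.074 (edgeR adjusted p = 0.0194) was lost without untreated library 2. Krtap6-5, the highest of the subfamily per length at 160 CPM per kilobase, overlapped between the loaded (108, 116 and 108 CPM) and untreated (112, 96.9 and 92.9 CPM) groups. It did not pass that test, at 0.13 ± 0.085 on the log2 scale (edgeR adjusted p = 0.268), but fell by 0.44 ± 0.086 with the empty device (edgeR adjusted p = 0.0039), to 72.9, 81.1 and 69.3 CPM. Krtap6-3 held means of 39.7 ± 2.5 (SD, n = 3), 26.5 ± 1.99 and 45.3 ± 2 CPM in the untreated, empty and loaded groups and rose by 0.19 with the loaded device. Krtap6-1 shared 28.3% and Krtap6-5 19% of their 50-base words with transcripts of other genes, so their counts are less certain than those of Krtap7-1 or Krtap8-1, which shared none.

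The remaining glycine-tyrosine subfamilies have 1 member each on this chromosome. Krtap22-2 held 267, 241 and 250 CPM untreated, 169, 182 and 158 CPM under the empty device and 287, 301 and 292 CPM under the loaded device. The loaded libraries all lay above the untreated ones, a rise of 0.22 ± 0.046 on the log2 scale (edgeR adjusted p = 7.75e-04). Krtap16-3 held 180, 162 and 162 CPM untreated, 109, 122 and 108 CPM under the empty device and 187, 197 and 182 CPM under the loaded device. Its rise of 0.17 ± 0.051 (edgeR adjusted p = 0.0169) was lost on leaving out untreated library 2, untreated library 3 or loaded library 2. Krtap21-1 and Krtap20-2 did not pass the test between loaded device and untreated. Krtap21-1 held 85.9, 73.3 and 72.2 CPM untreated, 58, 60.4 and 51.4 CPM under the empty device and 82.2, 87.7 and 81.3 CPM under the loaded device. Its log2 difference between the devices, 0.56 ± 0.084 (edgeR adjusted p = 9.46e-04), was the smallest of the 24. Krtap20-2, among the scarcest members, held 10.9, 10.2 and 10.6 CPM untreated and 10.4, 10.8 and 10.6 CPM under the loaded device. With the empty device it fell to 6.05, 7.21 and 5.87 CPM, by 0.73 ± 0.067 on the log2 scale (edgeR adjusted p = 3.45e-10).

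Of all tested members, the high-sulfur genes Krtap24-1 and Krtap27-1 fell furthest with the empty device. Krtap24-1, the first gene of the stretch (chr16:88407593-88409167, mm39, minus strand), held 67.6, 61 and 62 CPM untreated, 24.8, 26.1 and 22.5 CPM under the empty device and 48.2, 46.9 and 45.2 CPM under the loaded device. All 3 groups were apart, with the loaded device between the others. Krtap24-1 overlaps the gene Gm49688 and shares 6.62% of its 50-base words with other transcripts. It was 2.6-fold lower with the empty device, -1.38 ± 0.049 on the log2 scale (edgeR adjusted p = 8.80e-15), and fell by 0.44 ± 0.047 with the loaded device (edgeR adjusted p = 1.95e-07). Krtap27-1 followed the same order, from 13.8, 11.4 and 12.5 CPM untreated through 10.3, 10.8 and 10.3 CPM under the loaded device to 5.4, 5.62 and 4.76 CPM under the empty device. That is 2.39-fold lower with the empty device (log2 -1.26 ± 0.072, edgeR adjusted p = 3.52e-14) and -0.26 ± 0.067 with the loaded device (edgeR adjusted p = 0.0022), the latter lost with library size as the only scaling. Krtap26-1, which lies between them, held 104, 96.6 and 94 CPM untreated, 56.3, 60.4 and 53.9 CPM under the empty device and 92.7, 92.8 and 86.4 CPM under the loaded device. Its small fall with the loaded device, -0.12 ± 0.043 (edgeR adjusted p = 0.0350), was lost in 5 alternatives, and turned to 0.016 with library size as the only scaling.

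Krtap11-1 closes the stretch at its other end (chr16:89367064-89368071, mm39, minus strand). Untreated libraries held 826, 763 and 772 CPM, empty-device libraries 360, 392 and 344 CPM, and loaded-device libraries 776, 786 and 753 CPM. It was 2.15-fold lower with the empty device (log2 -1.11 ± 0.042, edgeR adjusted p = 1.14e-16), while loaded and untreated libraries overlapped (log2 -0.029 ± 0.041, edgeR adjusted p = 0.633). Krtap13-1 held 215, 199 and 185 CPM untreated, 104, 106 and 95.1 CPM under the empty device and 190, 192 and 180 CPM under the loaded device. It fell by 0.97 ± 0.052 with the empty device (edgeR adjusted p = 3.86e-10), and loaded and untreated libraries overlapped. Krtap15 held 932, 897 and 870 CPM untreated, 473, 507 and 439 CPM under the empty device and 887, 903 and 864 CPM under the loaded device. The overlapping gene Krtap14 held 669, 620 and 618 CPM, 374, 399 and 351 CPM, and 686, 694 and 658 CPM in the same groups. With their counts summed as 1 gene, the pair fell by 0.86 with the empty device (edgeR adjusted p = 7.26e-15). The summed pair differed by 0.027 ± 0.042 between loaded device and untreated (edgeR adjusted p = 0.663). Summing leaves the overlap with 4930553J12Rik as it was. Directions between loaded device and untreated for Krtap11-1 and Krtap15 turned with library size as the only scaling, to 0.10 and 0.11.

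Krtap13 was the only member with too few counts for the test. It had 17, 9 and 13 counts in untreated libraries, 5, 1 and 3 under the empty device and 3, 4 and 1 under the loaded one, 56 in all. The untreated libraries were the highest, and both device groups overlapped each other. In an edgeR fit with no filter on low counts, Krtap13 was lower with either device than untreated, by log2 -2.23 ± 0.61 with the empty device (edgeR adjusted p = 0.00143) and -2.34 ± 0.63 with the loaded device (edgeR adjusted p = 0.00124). Of its 50-base words 24.9% were shared with transcripts of 3 other genes, and its fold changes rest on these few counts.

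The levels of each class were also summed per library. High glycine-tyrosine genes summed to 4210 ± 186 CPM (SD, n = 3) untreated, 2602 ± 171 CPM under the empty device and 4685 ± 133 CPM under the loaded device. High-sulfur genes summed to 2696 ± 114, 1401 ± 93.0 and 2671 ± 65.5 CPM. The ratio of high-sulfur to high glycine-tyrosine RNA was 0.637 to 0.646 in untreated, 0.538 to 0.539 in empty-device and 0.565 to 0.576 in loaded-device libraries, with no overlap between groups. Krtap7-1, Krtap8-1, Krtap15, Krtap11-1 and Krtap14 held 73.9% of the members' summed level and so weigh most in these sums. Krtap14 and Krtap15 are the overlapping pair whose reads may have been shared or discarded. The classes were formed with these values known, so the ratio is a description with no test.

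**Figure D3:**
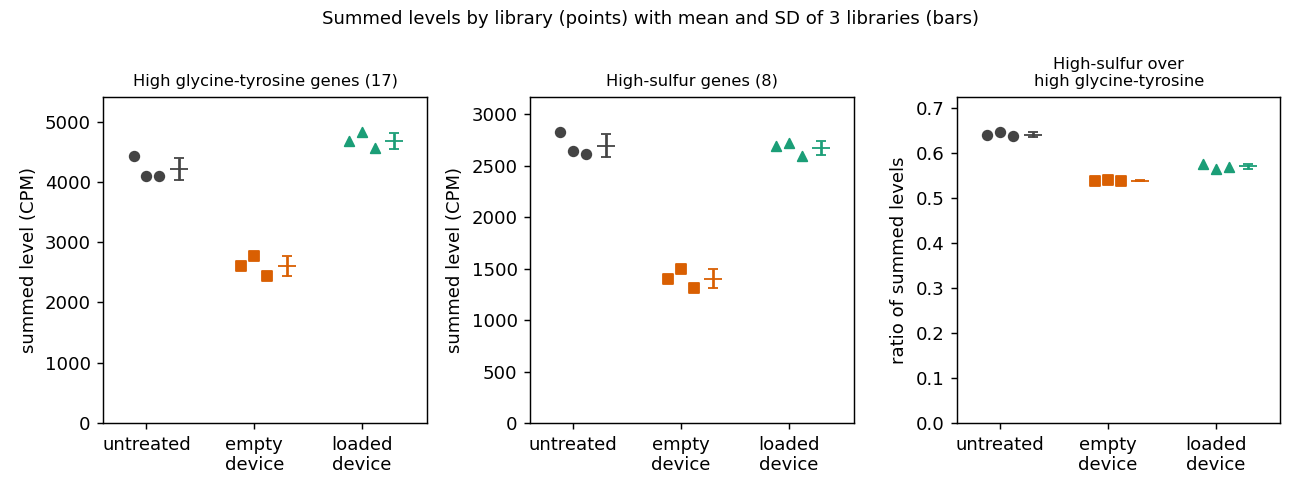
Summed level in CPM of the 17 high glycine-tyrosine genes (left) and the 8 high-sulfur genes (middle), and their ratio (right), with 1 point per library and the mean and SD of 3 libraries beside the points. Empty-device sums are the lowest in both classes, and the ratio is highest in untreated libraries, at 0.637 to 0.646.

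Libraries of 1 group differed in the same way for nearly all members. Untreated library 1 held the highest level of its group for 24 of 24 tested members, empty-device library 2 for 24 and loaded-device library 2 for 23. Members therefore do not vary independently within a group. The median coefficient of variation was 6.19% untreated, 7.10% under the empty device and 3.41% under the loaded one. Krtap7-1 had the steadiest level in untreated libraries, at 1.96%, and Krtap19-9a the least steady there, at 17%. Under the empty device Krtap19-9a was the steadiest tested member, at 2.21%.

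Keratins of the hair shaft are the partners that these proteins cross-link. Of 14 hair shaft keratin genes, 14 fell with the empty device (median log2 -0.56), 9 rose and 3 fell with the loaded device against untreated (median 0.22), and 13 were higher with the loaded than the empty device (median 0.76). Krt31, an acidic keratin of the cortex, held means of 348, 244 and 456 CPM in untreated, empty and loaded groups. Krt35, Krt33a and Krt82 were the others with the smallest p between the devices, with log2 differences of 0.88, 0.88 and 0.81. The exception on the list between the devices was Krt84, at -0.078 (edgeR adjusted p = 0.184). Set against the summed hair shaft keratins, the members' sum was 1.29 ± 0.0437 (SD, n = 3) untreated, 1.10 ± 0.0109 under the empty device and 1.15 ± 0.0148 under the loaded one. Relative to that keratin sum, Krtap24-1 differed by -0.81 on the log2 scale under the empty device and -0.70 under the loaded one, and Krtap27-1 by -0.69 and -0.51. Krtap19-4 differed by 0.04 and 0.17. Under the empty device the members ran from -0.81 at Krtap24-1 to 0.20 at Krtap6-2, so the ratio of sums does not describe each member. These relative values are a description with no test.

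Krtap genes on other chromosomes mostly fell with the empty device too, apart from subfamily 4. Of 31 tested there, 23 fell, 3 rose and 5 did not pass the test (median log2 -0.36). In subfamily 4, with 8 tested genes, 3 rose, 1 fell and 4 did not pass. Krtap2-4 was the only gene of another subfamily that did not fall by the test. Subfamily medians differed, with -1.18 in subfamily 5 and -0.28 in subfamily 3. Of the same 31, 20 rose and 4 fell with the loaded device against untreated (median 0.22). All 3 genes of subfamily 3 and 7 of 8 in subfamily 4 rose, and the 4 that fell were of subfamily 5. Between the devices, 28 of the 31 were higher with the loaded one (median 0.64). Whether the chromosome 16 genes differ from those on other chromosomes was not tested. The members' sum was 2.6 times the sum of these genes untreated, 1.95 times under the empty device and 2.37 times under the loaded one.

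Regulators of shaft formation were taken from a list of 16 genes, chosen like the other lists with earlier results of these data known. With the loaded device 13 rose and 1 fell against untreated, with the empty device 2 rose (Prdm1 and Gata3) and 11 fell, and between the devices 13 were higher and 1 was lower with the loaded device. Hoxc13 held means of 86.8, 66.4 and 111 CPM in the untreated, empty and loaded groups, with log2 differences of -0.39 for empty against untreated and 0.36 for loaded against untreated. Lef1, the Wnt partner whose strings were searched above, rose by 0.64 with the loaded device and fell by 0.25 with the empty device. Msx2 and Cux1, transcription factors of the hair matrix, were higher by 0.79 and 0.69 on the log2 scale with the loaded than the empty device. Other proteins of the shaft and its cells, such as Vsig8, S100a3, Padi3 and Gprc5d, were all higher with the loaded than the empty device, as were 8 of 8 on that list. Against untreated, 8 of 8 fell with the empty device, but the calls with the loaded device were mixed. There 5 rose, 1 did not pass the test and 2 fell, Gprc5d by 0.14 and Selenbp1 by 0.28 on the log2 scale. Inner root sheath genes, which mark the layer that moulds the shaft, fell in 9 of 9 with the empty device, rose in 8 of 9 with the loaded device against untreated, and were higher in 9 of 9 between the devices.

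Markers of other cell types also differed between the groups. Summed epidermal keratinocyte markers (6 genes) ran from 40031 to 41288 CPM untreated, 48373 to 49700 CPM under the empty device and 28330 to 30318 CPM under the loaded device. Within this list Krt1, Krt10, Lor and Flg rose with the empty device, while the basal keratins Krt14 and Krt5 fell, by 0.83 and 0.12 on the log2 scale. Melanocyte markers (5 genes), which mark the pigment cells of growing follicles, ran from 451 to 473, 219 to 245 and 457 to 500 CPM. All 5 fell with the empty device, but with the loaded device against untreated Dct and Pmel rose while Tyrp1 and Mlana fell. Cell cycle genes fell in 10 of 10 with the empty device, where 28.1% of all tested genes fell. They were higher in 10 of 10 with the loaded than the empty device, where 22.9% of all tested genes were higher. With the loaded device against untreated 2 rose (Aurkb and Plk1), 4 fell (Top2a, Ccnb1, Cdk1 and Birc5) and 4 did not pass the test. Their sums were 666 to 718, 366 to 382 and 610 to 630 CPM in the untreated, empty and loaded groups. Adipocyte markers (4 genes) ran from 56.6 to 60.5, 27.6 to 29.1 and 80.4 to 87.5 CPM. Skeletal muscle markers (5 genes) ran from 6338 to 6566, 8083 to 9443 and 5932 to 6351 CPM. Myh4 went against this sum, with means of 991, 519 and 1187 CPM. Of 3 white blood cell markers Itgam was near 0, and their sum ran from 23.4 to 24, 20.4 to 23.9 and 16.9 to 19.1 CPM. The part of these shifts in tissue makeup in the members' differences was not tested.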

How the data were processed

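Per the labels' protocols, extraction used Qiagen miRNeasy and library preparation used xGen Broad-Range from IDT. Per the submitters' processing notes, reads were aligned with HISAT2 to mm39 and counted per gene with featureCounts. Versions, annotation and the strand setting were not given in the sources used here. The deposited table holds raw counts by the authors for 9 libraries, with gene position and length.

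Counts were fitted with edgeR 4.0.16 in R 4.3.3 (TMM factors, filterByExpr with a minimum count of 10 and minimum total of 15, robust quasi-likelihood test, 1 coefficient per group, all 9 libraries), and p-values were adjusted over all 26081 tested genes. The script was tested on simulated data. DESeq2 1.42.0 and limma 3.58.1 were alternatives, with other scalings, filters, a replicate block, and each library left out. Summing Krtap14 and Krtap15 was added after the data were seen. Members and lists were chosen with earlier results of these data known. The rule for named genes gave per-library values for the highest gene per length in each subfamily and for the 3 highest and 3 lowest fold changes in each comparison, and named up to 4 genes of other lists, by smallest p between the devices, with group means or fold changes. Krtap13, Krtap19-3, Krtap19-9a, Krtap6-3, Krt84 and other list genes that went against their list fall outside that rule and were added after their values were seen.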

Additional observations from a re-analysis of the deposited data

How the results depend on the processing

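Across all alternatives run for the 24 tested members, 1331 of 1374 single-gene checks kept direction and side of the threshold, 22 lost the call, 18 gained it and 3 turned. These checks are not independent. Leaving out a library of a group not compared acts only through the shared filter, scaling and spread. The summed pair was entered for both Krtap14 and Krtap15. Every change was in loaded device against untreated, except Krtap19-9a, which lost its fall with the empty device once empty-device library 3 was left out (log2 -0.44, adjusted p = 0.0525). The counts of members higher with the loaded than the empty device (24) and lower with the empty device (24) were 24 and 24 to 25 under all alternatives. With library size as the only scaling, members lower in loaded device against untreated numbered 1, the median log2 fold change was 0.29 for loaded device and -0.48 for empty device against untreated, and Krtap26-1, Krtap15 and Krtap11-1 turned to 0.016, 0.11 and 0.10. Without 1 library, members higher in loaded device against untreated ran from 9 (without untreated library 2) to 16 (without untreated library 1), and members lower from 2 to 4. The medians ran from 0.13 to 0.22, from -0.65 to -0.52 with the empty device, and from 0.79 to 0.89 between the devices.

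With the replicate block, 14 members were higher and 4 lower in loaded device against untreated, and the other counts were as without it. Correlations of same-numbered libraries ran from -0.134 to 0.104, and 3 of 9 libraries correlated best with their own number, so the numbers were not taken to pair the libraries. The depth of 85962714 counts or more limits only Krtap13.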
